A study of Mus musculus with 2 samples.

Results

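Hgf, Met, Vegfa, Kdr, Flt1, Flt4, Nrp1, Tek, Angpt1 and Angpt2 are the ligands and receptors of the HGF, VEGF and angiopoietin pathways, chosen by symbol from the count table as 10 of its 32286 genes. HGF is a growth factor that drives hepatocyte division through its receptor MET, and in the liver it is known as a product of non-parenchymal cells. VEGF-A is released by hepatocytes and acts on the sinusoidal endothelium through VEGFR1 and VEGFR2, with neuropilin 1 as a co-receptor. Angiopoietins 1 and 2 compete for the endothelial receptor TIE2, and the endothelium in turn returns growth signals to the hepatocytes of a regenerating liver.

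Single nuclei were profiled from 1 Cox10-/- liver and 1 wild-type liver, both taken after a 70% partial hepatectomy in mice that carried a floxed Cox10 allele. Cox10 encodes an enzyme of heme A synthesis needed for cytochrome c oxidase. Mice had received AAV8-GFP or AAV8-Cre into the retro-orbital sinus 4 weeks before surgery, AAV8 being a vector that reaches mainly hepatocytes, and the labels do not say which vector each animal was given. The treatment text places collection 4 days after surgery and the time label says 4 weeks. Age and sex are not given in the labels. With 1 animal a group no test between genotypes was possible, and every interval printed covers counting error only, since animal and genotype cannot be told apart.

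The Cox10-/- library held 5167 nuclei and 14476400 unique molecular identifiers (UMIs, each counting a captured RNA molecule), and the wild-type library 5448 nuclei and 17703804 UMIs. The median was 2291 UMIs a nucleus in the Cox10-/- library and 2854 in the wild-type library. Mitochondrially encoded UMIs exceeded 10% in 39.3% of Cox10-/- nuclei and in 71.7% of wild-type nuclei, and these were set aside for the main analysis, leaving 3128 and 1542 nuclei after removal of doublets. The Cox10-/- nuclei comprised 1160 hepatocyte-like, 833 endothelial-like, 618 stellate-like, 261 myeloid-like, 58 lymphoid-like, 23 cholangiocyte-like and 175 unnamed nuclei. The wild-type nuclei comprised 1494 hepatocyte-like, 25 endothelial-like, 7 stellate-like, 3 myeloid-like, 10 lymphoid-like, 2 cholangiocyte-like and 1 unnamed nuclei. The lineage levels below therefore come from the Cox10-/- library unless another is named, and the difference in nuclei obtained between the livers was not read as a difference in tissue makeup. The 2 libraries shared 7 cell barcodes. Cox10 itself had 43.4 CPM (UMIs of the gene per 1000000 UMIs of the summed nuclei) in Cox10-/- hepatocyte-like nuclei and 35.7 CPM in wild-type ones, a ratio of 1.21 (95% interval 0.997 to 1.48), and a 3′ tag that lies outside the deleted part cannot check the deletion.

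Of the 10 genes, 5 were at least 4-fold higher in 1 lineage than in every other, against 9.95% of the 12743 genes with at least 20 UMIs. Kdr, Flt1, Flt4 and Tek were the endothelial-like genes and Hgf was the stellate-like gene. At that threshold 1.62% of all genes were endothelial-like, 2.56% were stellate-like, and 1.82% were cholangiocyte-like. The other 5 genes missed it for different reasons. Met and Vegfa were shared by hepatocyte-like and cholangiocyte-like nuclei, Nrp1 was spread over endothelial-like, myeloid-like and stellate-like nuclei, Angpt1 was split between cholangiocyte-like and stellate-like nuclei, and Angpt2 had too few UMIs to separate lineages.

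**Figure D1:**
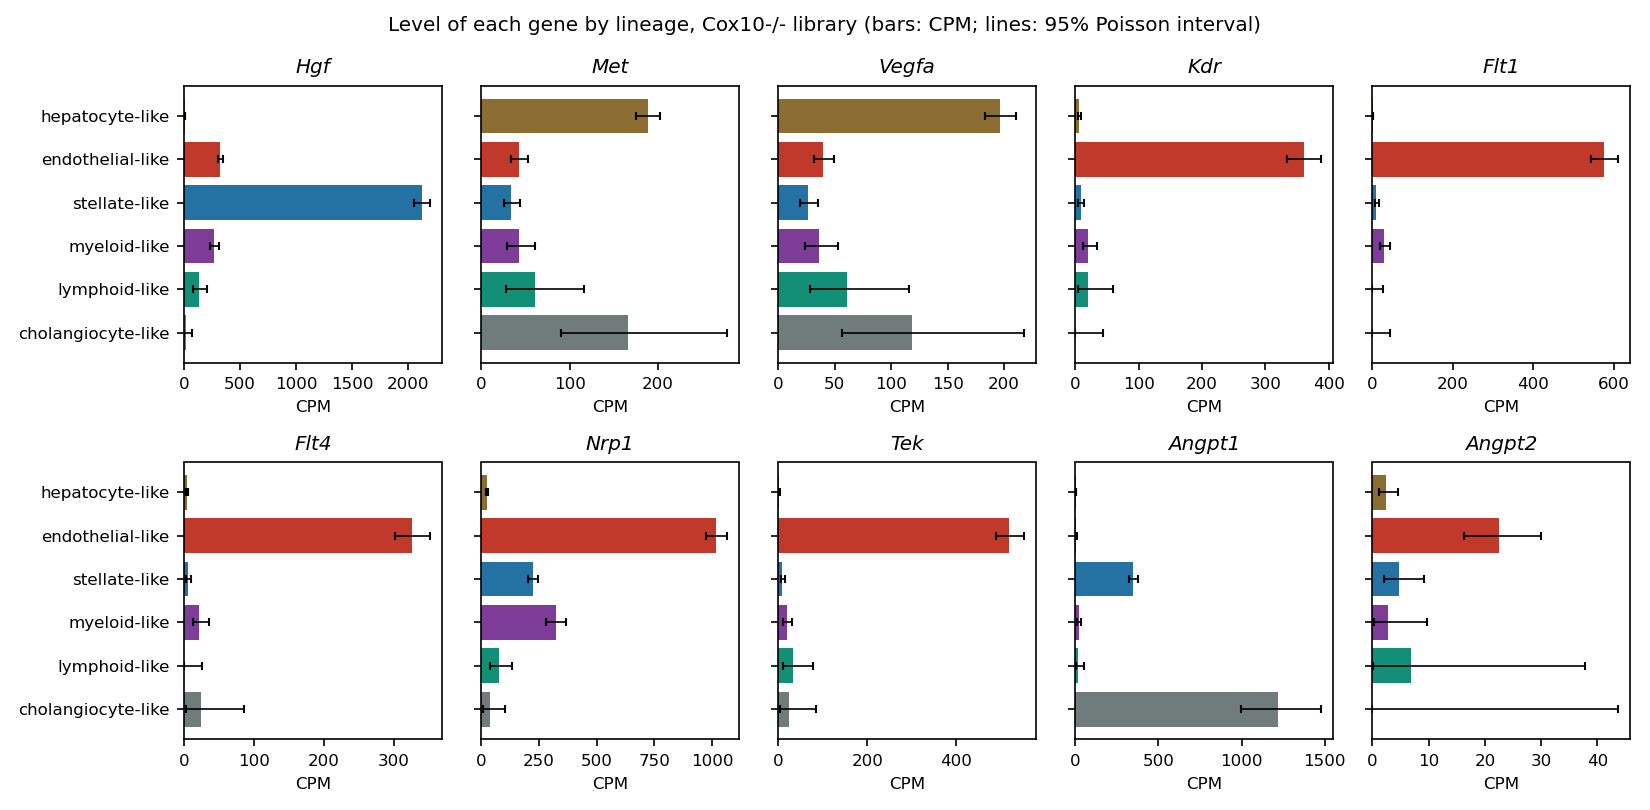
Level of the 10 genes in CPM (horizontal axis, its own scale in each panel) in the 6 named lineages of the Cox10-/- library. Bars are summed nuclei and lines are 95% Poisson intervals; Hgf reaches 2125 CPM in stellate-like nuclei, Kdr, Flt1, Flt4, Nrp1 and Tek peak in endothelial-like nuclei, and Met and Vegfa peak in hepatocyte-like nuclei.

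Hgf encodes the ligand of MET (mm10, chr5:16553495-16620152, + strand). Its level was 2125 CPM in stellate-like nuclei (95% interval 2057 to 2195, 3669 UMIs), the perisinusoidal cells that store vitamin A. It was 321.8 CPM in endothelial-like, 269.5 CPM in myeloid-like and 129 CPM in lymphoid-like nuclei. It was 11.8 CPM in cholangiocyte-like nuclei, from 1 UMI, and 4.85 CPM in hepatocyte-like nuclei, from 20 UMIs. Stellate-like nuclei thus exceeded the next lineage 6.60-fold (6.07 to 7.19), while the intervals of endothelial-like and myeloid-like nuclei overlapped. Over all deposited Cox10-/- nuclei these last lineages had 315 CPM (296 to 335) in endothelial-like and 144 CPM (127 to 164) in myeloid-like nuclei, without overlap. At least 1 Hgf UMI was present in 94.5% of stellate-like nuclei at a median depth of 2674 UMIs, and in 1.64% of hepatocyte-like nuclei at a median depth of 2620 UMIs. After each nucleus was thinned to 1000 UMIs the share was 79.0% in stellate-like and 0.627% in hepatocyte-like nuclei. Stellate-like nuclei held 73.0% of the Hgf UMIs of the library and endothelial-like nuclei 12.9%.

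The Hgf UMIs of endothelial-like nuclei were also set against the stellate marker genes, and the part of stellate RNA in them was not tested. Stellate markers (Reln, Dcn, Lrat, Pdgfrb and 6 others) summed to 245 CPM in endothelial-like nuclei and 185 CPM in hepatocyte-like nuclei, against 9007 CPM in stellate-like nuclei. Per 100 stellate marker UMIs there were 132 Hgf UMIs in endothelial-like nuclei, 2.62 in hepatocyte-like nuclei and 23.6 in stellate-like nuclei. Angpt1, the other ligand high in stellate-like nuclei, had 1.22 UMIs per 100 marker UMIs in endothelial-like nuclei and 3.85 in stellate-like nuclei. An Hgf UMI was seen in 40.5% of endothelial-like nuclei. In myeloid-like nuclei the ratio was 34.2 Hgf UMIs per 100 stellate marker UMIs, nearer that of stellate-like nuclei, and stellate markers there summed to 787 CPM. Hgf in lymphoid-like nuclei came from 4 of 58 nuclei.

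Met encodes the HGF receptor (chr6:17463800-17573980, + strand). It reached 188.6 CPM in hepatocyte-like nuclei (176 to 202) and 166 CPM in cholangiocyte-like nuclei (90.6 to 278), and these intervals overlapped. The remaining lineages lay between 33.6 CPM in stellate-like and 60.9 CPM in lymphoid-like nuclei. Receptor and ligand thus had their highest levels in different lineages, and hepatocyte-like nuclei held 71.9% of the Met UMIs of the library. Hepatocyte markers (Alb, Apob, Cps1 and 7 others) summed to 37688 CPM in hepatocyte-like nuclei and still to 25116 CPM in endothelial-like nuclei, where Met had 0.169 UMIs per 100 such UMIs against 0.5004 in hepatocyte-like nuclei. Cholangiocyte-like nuclei had 1.001 Met UMIs per 100 hepatocyte marker UMIs. In the wild-type library the order differed, with 0.851 in endothelial-like and 0.720 in hepatocyte-like nuclei, from 25 endothelial-like nuclei. The part of hepatocyte RNA in the levels of other lineages was not tested.

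Vegfa encodes the main ligand of the VEGF receptors (chr17:46016993-46032369, - strand). It had 196.3 CPM in hepatocyte-like nuclei (183 to 210) and 118 CPM in cholangiocyte-like nuclei (56.7 to 218), again with overlapping intervals. Stellate-like nuclei had 26.6 CPM and endothelial-like nuclei 39.9 CPM. Hepatocyte-like nuclei held 75.4% of the Vegfa UMIs. Endothelial-like nuclei had 0.159 Vegfa UMIs per 100 hepatocyte marker UMIs, against 0.521 in hepatocyte-like nuclei.

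An unnamed group of 90 Cox10-/- nuclei led by Vmn2r3, Areg, a growth factor of the EGF family, and Slc7a11 carried both hepatocyte-lineage members as well. It had 218 CPM of Met and 193 CPM of Vegfa, with 6.74 CPM of Hgf and 27.0 CPM of Nrp1. Its hepatocyte and cholangiocyte markers did not reach the thresholds for a name.

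The VEGF receptors were endothelial. Flt1, which encodes the decoy-like receptor VEGFR1 (chr5:147561604-147726011, - strand), had 576.8 CPM in endothelial-like nuclei, from 1158 UMIs, and 0.970 CPM in hepatocyte-like nuclei, from 4 UMIs. Kdr, which encodes the main signalling receptor VEGFR2 (chr5:75932827-75978458, - strand), had 360.6 CPM in endothelial-like and 5.82 CPM in hepatocyte-like nuclei. Flt4, which encodes VEGFR3, the receptor of VEGF-C and VEGF-D (chr11:49609263-49652739, + strand), had 325.3 CPM in endothelial-like and 3.64 CPM in hepatocyte-like nuclei. Against the next highest lineage these were 20.4-fold (13.3 to 33.1), 17.8-fold (6.05 to 86.3) and 13.7-fold (3.79 to 114) for Flt1, Kdr and Flt4 in that order, the width reflecting 21, 3 and 2 UMIs in those lineages. In cholangiocyte-like nuclei Kdr and Flt1 had 0 UMIs, with an interval up to 43.6 CPM.

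Tek encodes TIE2, the angiopoietin receptor (chr4:94739289-94874976, + strand). Its level was 520.0 CPM in endothelial-like nuclei (489 to 553), 33.9 CPM in lymphoid-like nuclei and 1.94 CPM in hepatocyte-like nuclei. The fold over lymphoid-like nuclei was 15.4 (6.56 to 47.4), from 5 UMIs in 2 lymphoid-like nuclei. A Tek UMI was present in 62.9% of endothelial-like nuclei at a median depth of 2264 UMIs, and in 0.690% of hepatocyte-like nuclei. Tek had the same lineage pattern as the VEGF receptors.

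Nrp1 encodes neuropilin 1, which binds VEGF-A and semaphorins (chr8:128358604-128503363, + strand). Of the receptor genes highest in endothelial-like nuclei, it was the most widely spread. It had 1019 CPM in endothelial-like (975 to 1064), 322.1 CPM in myeloid-like (283 to 366) and 224.2 CPM in stellate-like nuclei (202 to 248), 3 levels with separate intervals. Over all deposited Cox10-/- nuclei the myeloid-like level was 233 CPM (211 to 258) and the stellate-like level 224 CPM (204 to 245), and these intervals overlapped. Lymphoid-like nuclei had 74.5 CPM and cholangiocyte-like nuclei 35.5 CPM, with overlapping intervals, and hepatocyte-like nuclei had 23.0 CPM. Nrp1 in stellate-like and myeloid-like nuclei was also set against the endothelial markers, and the part of endothelial RNA in it was not tested. Per 100 endothelial marker UMIs it had 83.9 UMIs in stellate-like and 39.9 in myeloid-like nuclei, against 9.97 in endothelial-like nuclei.

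**Figure D2:**
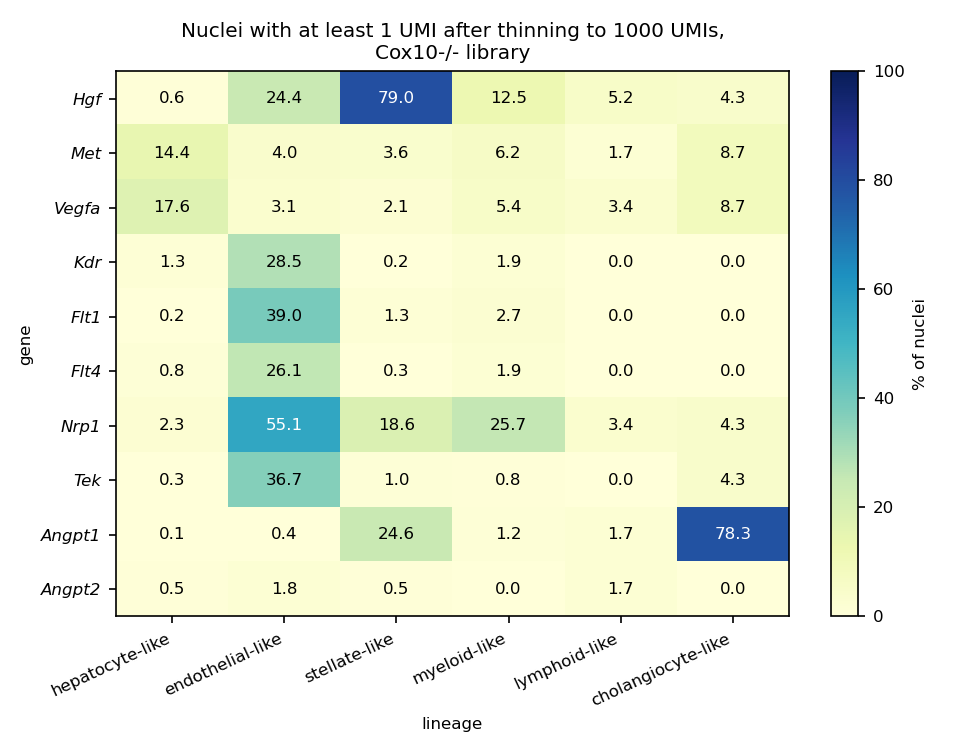
Share of Cox10-/- nuclei with at least 1 UMI of each gene (rows) in each lineage (columns) after thinning every nucleus to 1000 UMIs. Hgf marks 79.0% of stellate-like nuclei, Nrp1 55.1% of endothelial-like nuclei and Angpt1 78.3% of cholangiocyte-like nuclei.

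Angpt1 encodes the activating ligand of TIE2 (chr15:42424723-42676977, - strand). It had 1219 CPM in cholangiocyte-like nuclei (995 to 1478), from 103 UMIs in 22 of 23 nuclei, and 347.0 CPM in stellate-like nuclei (320 to 376), from 599 UMIs. Myeloid-like nuclei had 18.9 CPM, endothelial-like nuclei 2.99 CPM and hepatocyte-like nuclei 1.45 CPM. The cholangiocyte-like level was 3.51-fold the stellate-like level (2.82 to 4.34). By amount the order was the other way round, with 75.8% of the Angpt1 UMIs of the library in stellate-like and 13.0% in cholangiocyte-like nuclei. Among wild-type nuclei, the 2 cholangiocyte-like nuclei carried 11 Angpt1 UMIs. The cholangiocyte-like level depends on the clustering. Where that cluster took in the nuclei led by Vmn2r3, Angpt1 was 196 CPM at a coarser clustering. Over all deposited nuclei, where the cluster also took them in, it was 306 CPM (269 to 347) in 193 Cox10-/- nuclei. Stellate-like nuclei of that library then had 335 CPM (311 to 361), so the lead of cholangiocyte-like nuclei was lost. In 10 wild-type cholangiocyte-like nuclei Angpt1 was 828 CPM (28 UMIs), a ratio of Cox10-/- over wild-type of 0.370 (0.2497 to 0.568). The ratio was 1.19 (0.638 to 2.46) in the main set. With lineages taken from each nucleus's own marker UMIs it was 3.74 (2.53 to 5.74), the other direction. No difference between the libraries was read from these values.

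Angpt2 encodes the ligand that antagonises TIE2 in most settings and is known as a product of activated endothelium (chr8:18690263-18741562, - strand). It was scarce, with 22.4 CPM in endothelial-like nuclei (16.4 to 29.99, 45 UMIs) and 2.42 to 6.77 CPM, from at most 10 UMIs, in 4 other lineages. The highest of these was 1 UMI in lymphoid-like nuclei, with an interval up to 37.7 CPM. Cholangiocyte-like nuclei had 0 UMIs, with an interval up to 43.6 CPM. The gene lies inside Mcph1 on the opposite strand, which had 1279 UMIs, and with the strand setting of the counting not given in the sources used here the assignment of these reads is uncertain. No order between lineages was read from it.

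Ligands and receptors were then looked at within single nuclei thinned to 1000 UMIs. Of 831 endothelial-like nuclei, 66.8% had a UMI of at least 1 of Kdr, Flt1 and Flt4 (63.5% to 70.0%, exact Clopper-Pearson interval), and 23.5% had UMIs of at least 2 of these receptors. Tek was found in 36.7%, together with a VEGF receptor in 24.3% and with no VEGF receptor in 12.4%. Of 618 stellate-like nuclei, 79.0% had Hgf, 24.6% had Angpt1 and 19.6% had both. At this depth an absent UMI does not show an absent transcript. Whether genes were found together more often than their separate shares would give was not tested, so no co-expression was read from these shares.

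Endothelial-like nuclei formed 2 clusters that differed in receptor level. The cluster of 545 nuclei with Wnt2 and the sinusoidal marker Stab2 among its leading genes had 407 CPM of Kdr, 642 CPM of Flt1, 389 CPM of Flt4 and 1089 CPM of Nrp1. The cluster led by Mecom, Vwf and Adgrg6, of 288 nuclei and with the portal or arterial markers Vwf, Ntn4 and Sox17 among its leading genes, had 253 CPM of Kdr, 428 CPM of Flt1, 178 CPM of Flt4 and 859 CPM of Nrp1. Tek was 529 CPM and 498 CPM in these clusters, in the same order, and Hgf was 344 CPM and 270 CPM. The VEGF receptors were thus lower outside the sinusoidal cluster while Tek was close in both. The median depth was 2504 UMIs in the Wnt2 cluster and 1821 UMIs in the Vwf cluster.

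Endothelial-like nuclei with a UMI of a central-vein-side marker (Wnt2, Wnt9b, Rspo3, Kit or Thbd; 291 nuclei) had more Flt1 than the other 542, at 713 CPM (653 to 776) against 497 CPM (459 to 538). Nrp1 ran the other way, at 901 CPM (834 to 972) against 1088 CPM (1032 to 1147). Hgf was 317 CPM in the nuclei with such a UMI and 325 CPM in those without, and their intervals overlapped, as did those of Kdr and Flt4. Among hepatocyte-like nuclei ranked by the pericentral share of their zonation marker UMIs, Vegfa in the Cox10-/- library was 171 CPM in the most pericentral tercile (148.2 to 196) and 215 CPM in the least (194 to 238). In the wild-type library it was 274 CPM (254 to 296) and 298 CPM (276 to 322). The Cox10-/- terciles also differed in median depth, at 1657 and 4086 UMIs.

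One unnamed cluster of 58 Cox10-/- nuclei, led by Tnxb, Art3 and Kcnip3, carried ligands and receptors together. It had 1650 CPM of Hgf, 214 CPM of Angpt1, 727.5 CPM of Nrp1, 228 CPM of Kdr and 246 CPM of Tek. Stellate and endothelial markers were both high in it, and its median of 4699 UMIs exceeded that of stellate-like nuclei, 2674, and of endothelial-like nuclei, 2264. Met had 3.62 CPM and Vegfa 7.24 CPM there, below all 6 named lineages. Whether these are cells of 1 kind or pairs of nuclei was not tested.

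The 3 receptor promoters whose RefSeq start lay within 5 bases of the GENCODE start are shown because Kdr, Flt1 and Tek shared the endothelial pattern. These are the 250 bases before the start, 5′ to 3′ on the gene's strand, from RefSeq on GRCm38.p6, with capitals at GGAA or TTCC, the core of ETS-family motifs on either strand. They lie at chr5:75978456-75978705 (Kdr, - strand), chr5:147726012-147726261 (Flt1, - strand) and chr4:94739039-94739288 (Tek, + strand).
Kdr: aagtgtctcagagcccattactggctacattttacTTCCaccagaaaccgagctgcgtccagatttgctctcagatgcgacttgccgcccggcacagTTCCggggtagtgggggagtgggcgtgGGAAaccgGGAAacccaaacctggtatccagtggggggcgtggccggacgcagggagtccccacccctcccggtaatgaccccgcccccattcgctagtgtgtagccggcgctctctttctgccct
Flt1: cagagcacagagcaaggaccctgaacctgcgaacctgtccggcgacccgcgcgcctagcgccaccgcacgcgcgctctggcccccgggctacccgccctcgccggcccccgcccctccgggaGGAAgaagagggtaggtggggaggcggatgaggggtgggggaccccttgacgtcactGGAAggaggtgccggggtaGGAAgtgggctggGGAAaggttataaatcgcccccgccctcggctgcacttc
Tek: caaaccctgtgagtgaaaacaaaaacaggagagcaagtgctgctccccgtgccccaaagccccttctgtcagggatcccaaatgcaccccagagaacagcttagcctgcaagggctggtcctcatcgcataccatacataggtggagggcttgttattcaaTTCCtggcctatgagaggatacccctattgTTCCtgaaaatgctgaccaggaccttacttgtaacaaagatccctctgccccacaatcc
Kdr held 4 matches, Flt1 4 and Tek 2. Of 32851 promoters in the table, 93.4% held at least 1 match, the median was 3, 33.4% held at least 4 and 76.8% at least 2. The count of this motif therefore did not set these promoters apart, and a match of letters is not a binding site.

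By rule, the 3 genes most like each member were those with the highest Pearson correlation of log2(CPM + 1) over 13 clusters that share 2 libraries, given as a description. They were Dennd2a, Rerg and Mamld1 for Hgf, Lamb1, Pakap and Runx1t1 for Angpt1, and Gm31814, Crp and Gckr for Vegfa. Met was most like Patj, Gm20528 and Ablim3. Among receptors, Kdr was most like Dnase1l3, Aqp1 and Adgrl4, Flt1 like Rgs7bp, Srgap1 and Flrt2, Flt4 like Emcn, Arhgef15 and Filip1, Tek like Vamp5, Fgd5 and Cd55, and Nrp1 like Klhl5, Hdac1 and Camta1. The correlations ran from 0.963 for Nrp1 with Camta1 to 0.996 for Angpt1 with Lamb1. Angpt2, with 90 UMIs, was not ranked.

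Between genotypes, hepatocyte-like nuclei gave the comparison with the most counts, at 4125376 UMIs in Cox10-/- nuclei and 7078434 UMIs in wild-type nuclei. It asks whether the receptor of HGF and the hepatocyte's own VEGF ligand differed between the genotypes. A gene was called where the ratio was at least 2-fold with its whole 95% interval beyond 1.5-fold and at least 20 UMIs over both sums. Of the 10 genes, 6 reached 20 UMIs. Nrp1 was called lower, against 3.24% of 11405 genes, and Hgf and Kdr were called higher, against 7.65%. The median log2 ratio over all genes was -0.03. The nuclei compared came from different clusters, since Cox10-/- nuclei lay mostly in those led by 4930404H11Rik and Cyp2b10 and by Tff3, Saa1 and Orm2, and wild-type nuclei in those led by Cyp17a1, by Gm11844 and Sult2a8 and by Gm13775.

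Met had 188.6 CPM in Cox10-/- hepatocyte-like nuclei (176 to 202) and 212.3 CPM in wild-type ones (202 to 223). The ratio was 0.888 (0.813 to 0.969), short of the call. Without the shallow Cox10-/- cluster led by Tff3 its log2 value was -0.09, with an interval that reached above 0. A Met UMI was present in 14.4% of Cox10-/- and 20.03% of wild-type nuclei after thinning, and in 39.3% and 56.8% before it. By cluster the levels overlapped, at 112 to 203 CPM over 3 Cox10-/- clusters and 197 to 234 CPM over 3 wild-type clusters.

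Vegfa had 196.3 CPM in Cox10-/- hepatocyte-like nuclei (183 to 210) and 283.4 CPM in wild-type ones (271 to 296). The ratio was 0.693 (0.638 to 0.752), which is 1.44-fold lower and not called, and 14.6% of all genes were at least 1.5-fold lower. The thinned share of nuclei with a UMI was 17.6% in Cox10-/- and 23.7% in wild-type nuclei. Every Cox10-/- cluster, at 110 to 214 CPM, lay below every wild-type cluster, at 260 to 294 CPM, and these clusters share 1 animal a side.

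Nrp1 showed the lowest ratio of the 6 genes tested. It had 23.0 CPM in Cox10-/- hepatocyte-like nuclei (18.6 to 28.2, 95 UMIs) and 70.2 CPM in wild-type ones (64.2 to 76.7, 497 UMIs), a ratio of 0.328 (0.261 to 0.409) or 3.05-fold lower. The clusters did not overlap, at 19.0 to 37.4 CPM for Cox10-/- and 68.1 to 78.8 CPM for wild-type. After thinning, 2.33% of Cox10-/- and 7.23% of wild-type nuclei had a UMI. Cox10-/- hepatocyte-like nuclei had 3.96 Nrp1 UMIs per Kdr UMI, from 24 Kdr UMIs. Wild-type ones had 82.8, from 6 Kdr UMIs. Endothelial-like nuclei had 2.83 in the Cox10-/- library and 2.94 in the wild-type library, the latter from 16 Kdr UMIs. Over all deposited nuclei these were 2.81 and 3.51. The part of endothelial RNA in the Nrp1 of hepatocyte-like nuclei was not tested. The related co-receptor gene Nrp2 was lower too, at 7.999 CPM in Cox10-/- and 22.7 CPM among wild-type hepatocyte-like nuclei, a ratio of 0.352 (0.234 to 0.514).

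Hgf and Kdr were called higher from few UMIs. Hgf had 4.85 CPM in Cox10-/- hepatocyte-like nuclei (20 UMIs) and 0.989 CPM in wild-type ones (7 UMIs), and Kdr had 5.82 CPM (24 UMIs) and 0.848 CPM (6 UMIs). Markers of the lineages that carry these genes moved with them, stellate markers being 185 CPM in Cox10-/- and 28.1 CPM among wild-type hepatocyte-like nuclei and endothelial markers 74.4 CPM and 30.5 CPM. Their part in the result was not tested. The Hgf call was lost under 5 alternatives. Its log2 ratio was 0.91 without the highest 4% of doublet scores, 1.77 without the shallow Cox10-/- cluster led by Tff3, 1.95 after thinning, 3.36 with lineages taken from each nucleus's own marker UMIs and -0.31 at no more than 5% mitochondrial UMIs. Kdr lost its call under 3 of these, with too few UMIs for one after thinning (3.62) and with own-marker lineages (3.92), and at the mitochondrial limit (3.74), where the interval reached below 0. Angpt2 had 2.42 CPM in Cox10-/- and 2.12 CPM in wild-type nuclei. Flt1, Flt4, Tek and Angpt1 were under 20 UMIs, with 4, 15, 8 and 6 UMIs in Cox10-/- and 5, 2, 5 and 0 UMIs in wild-type nuclei.

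**Figure D3:**
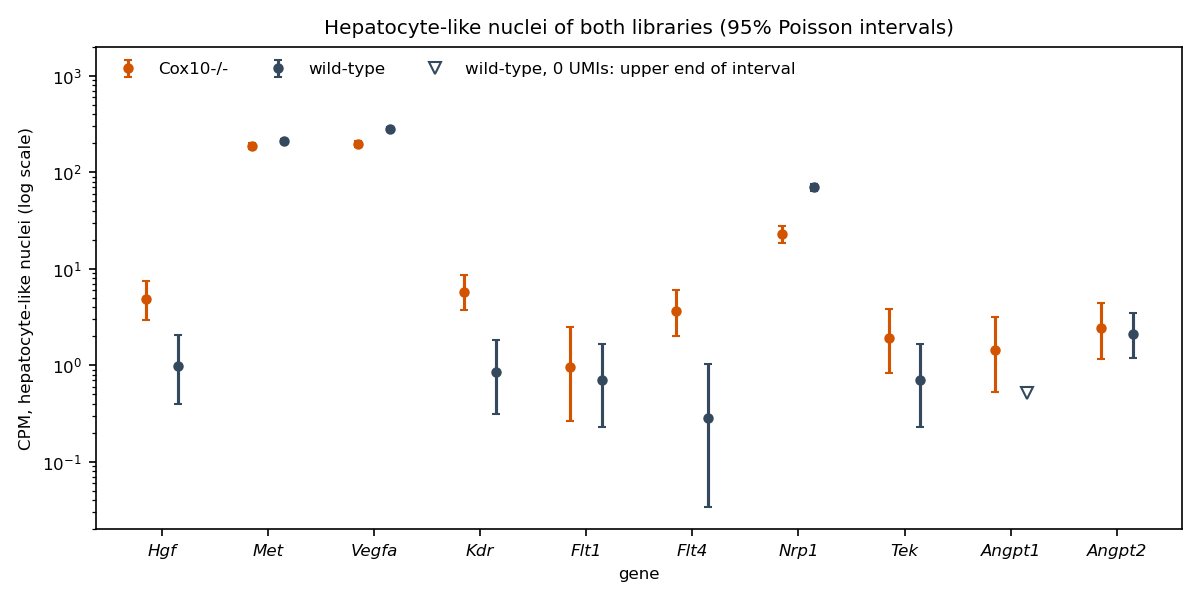
Level of each gene in hepatocyte-like nuclei (CPM, log scale) of the Cox10-/- and wild-type libraries, with 95% Poisson intervals. Nrp1 lies at 23.0 CPM in the Cox10-/- library and 70.2 CPM in the wild-type library; Met and Vegfa lie between 188.6 and 283.4 CPM in both; the open triangle is the upper end for 0 wild-type UMIs of Angpt1.

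Outside hepatocytes the main set held too few wild-type nuclei, so all deposited nuclei were clustered and named again, giving 748 Cox10-/- and 33 wild-type stellate-like nuclei and 1423 and 136 endothelial-like nuclei. Most wild-type endothelial-like nuclei, 91 of 136, lay in a cluster led by Kitl, Emcn and Arhgef15 with 10 Cox10-/- nuclei, and 1413 Cox10-/- nuclei lay in a cluster led by Mecom, Shisa9 and 4930554G24Rik. By CPM, 2 of 6 members tested in stellate-like nuclei were called higher, against 2.76% of 8753 genes, and 2 lower, against 5.85%. In endothelial-like nuclei 4 of 9 were called higher, against 6.32% of 10269 genes, and 2 lower, against 7.35%. Without the mostly wild-type cluster, log2 ratios of those called higher were 0.20 for Hgf, 0.38 for Flt1, 0.22 for Flt4 and 0.37 for Tek. This ends all 4 calls. The wild-type nuclei that remain are those whose expression placed them with Cox10-/- nuclei. The smaller ratios therefore cannot show that the libraries are alike. The median log2 ratio of all genes was 0.18 in stellate-like and 0.19 in endothelial-like nuclei.

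The lineage markers moved the same way as the genes called higher. Endothelial markers summed to 9593 CPM in Cox10-/- and 4679 CPM in wild-type endothelial-like nuclei, and stellate markers to 8903 CPM and 4128 CPM in stellate-like nuclei. Met in stellate-like nuclei was 35.1 CPM in the Cox10-/- library and 192 CPM in the wild-type library, and Vegfa was 25.9 CPM and 152 CPM. In endothelial-like nuclei Met was 41.8 CPM in the Cox10-/- library and 131 CPM in the wild-type library, and Vegfa 39.0 CPM and 221 CPM. These wild-type values lay between the Cox10-/- ones and the wild-type hepatocyte-like level of each gene. Each gene was therefore also set against its lineage markers in the same nuclei, a scale added after the data were seen. This scale divides every ratio of a lineage by the same ratio of marker sums, so the shift between the scales is not particular to any gene.

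Hgf in stellate-like nuclei was 2036 CPM in the Cox10-/- library and 870 CPM in the wild-type library, a ratio of 2.34 (1.89 to 2.93). Per 100 stellate marker UMIs it was 22.9 in the Cox10-/- library and 21.1 in the wild-type library, a ratio of 1.08 (0.855 to 1.39). That interval spans 1. With lineages taken from each nucleus's own marker UMIs, the ratio per marker UMI was 1.39 (1.10 to 1.77), which lies above 1. There the marker UMIs that chose the nuclei also form the scale. Wild-type stellate-like nuclei then numbered 83, not 33, with 538 marker UMIs, not 408, and 86 Hgf UMIs either way. No difference between the libraries was read from this ratio. Angpt1 in stellate-like nuclei likewise had a ratio of 2.76 by CPM (1.57 to 5.37) and 1.28 per marker UMI (0.720 to 2.51), from 687 Cox10-/- and 12 wild-type UMIs.

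Tek in endothelial-like nuclei was 499 CPM in the Cox10-/- library and 187 CPM in the wild-type library, a ratio of 2.67 by CPM and 1.30 per marker UMI (1.03 to 1.67). Flt1 was 528 CPM and 209 CPM in the same order, with ratios of 2.53 and 1.23 (0.988 to 1.56). Flt4 was 296 CPM and 112 CPM, with ratios of 2.65 and 1.29 (0.959 to 1.79). Kdr was 351 CPM in the Cox10-/- library and 197 CPM in the wild-type library, with ratios of 1.79 and 0.871 (0.691 to 1.11). Nrp1 was 986 CPM in the Cox10-/- library and 689 CPM in the wild-type library, a ratio of 1.43 (1.27 to 1.62) by CPM and 0.698 (0.612 to 0.797) per marker UMI.

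Hgf in endothelial-like nuclei stayed higher in Cox10-/- on both scales, at 315 CPM in the Cox10-/- library and 87.4 CPM in the wild-type library, with ratios of 3.61 (2.59 to 5.18) by CPM and 1.76 (1.26 to 2.53) per marker UMI. Without the cluster of mostly wild-type nuclei the log2 ratio by CPM was 0.20, and its interval reached below 0. That value rests on wild-type nuclei that clustered with Cox10-/- ones. Over all deposited nuclei the wild-type level rests on 36 Hgf UMIs in 136 nuclei. Stellate markers differed the same way in endothelial-like nuclei of the main set. They summed to 245 CPM in the Cox10-/- library and 17.1 CPM, from 2 UMIs, in the wild-type library. The part of stellate RNA in the Hgf ratio was not tested.

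**Figure D4:**
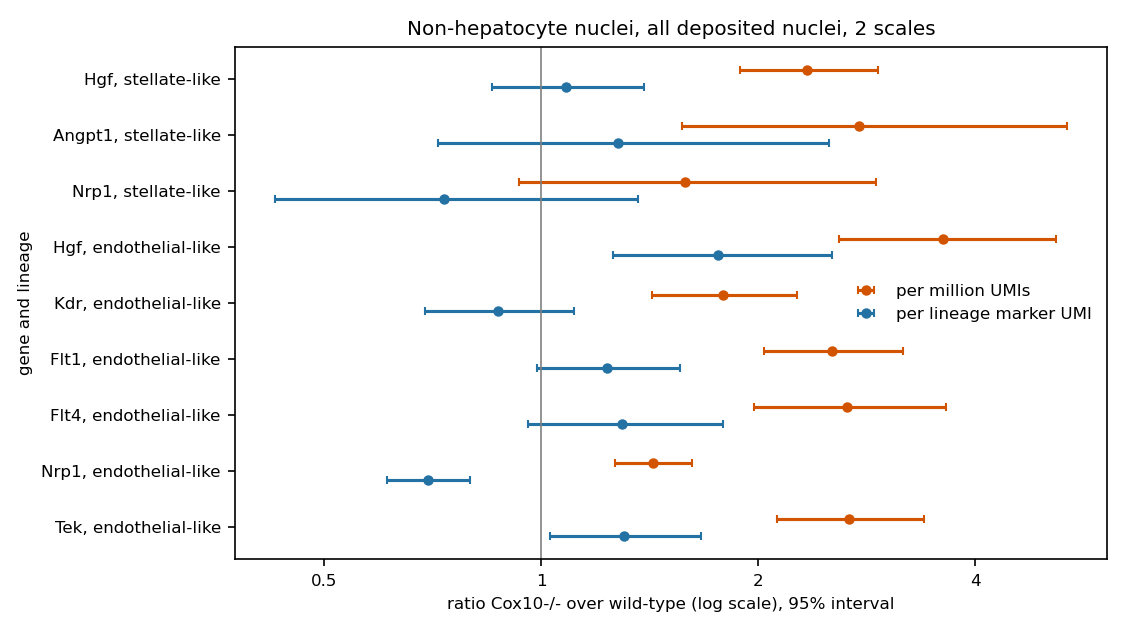
Ratio of Cox10-/- over wild-type level (log scale) with 95% intervals for 9 gene and lineage pairs over all deposited nuclei, by CPM (orange) and per lineage marker UMI (blue). The marker scale divides all ratios of a lineage by the same factor; Hgf in stellate-like nuclei is 2.34 on the CPM scale and 1.08 on the marker scale.

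The other genes of these pathways were taken from 6 lists of 52 genes, chosen with earlier results of these data known. In the Cox10-/- lineages 41 had at least 20 UMIs, and 8 of them were at least 4-fold higher in 1 lineage than in every other, where 9.95% of all genes were. In hepatocyte-like nuclei 35 could be tested between genotypes, 4 were called higher, against 7.65% of all genes, and 1 lower, against 3.24%.

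Of the 12 genes that activate HGF or form the HGF-like pair MST1 and RON, 6 were tested in hepatocyte-like nuclei and 0 were called, with a median log2 ratio of 0.06. Plg, the plasminogen gene, had 681 CPM and Hpn, which encodes the HGF-cleaving protease hepsin, 203 CPM in Cox10-/- hepatocyte-like nuclei. Hgfac, the gene of the HGF activator protease, had 73.2 CPM in Cox10-/- and 104 CPM in wild-type nuclei. Spint2, which encodes an inhibitor of that protease, had 52.6 CPM in Cox10-/- and 28.5 CPM in wild-type nuclei, a ratio of 1.84 (1.51 to 2.24).

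All 12 MET adaptors, partners and negative regulators were tested and 1 was called higher, against 7.65% of all genes. Cd44, whose product is a co-receptor of MET in some cells, was at 18.4 CPM in Cox10-/- and 8.19 CPM among wild-type hepatocyte-like nuclei, a ratio of 2.25 (1.58 to 3.22). In myeloid-like nuclei it had 571 CPM. Ptpn1, which encodes a phosphatase, had 21.8 CPM in Cox10-/- and 15.3 CPM in wild-type nuclei. The highest lineage levels were in stellate-like nuclei, at 646 CPM for Pik3r1 and 640 CPM for the docking protein gene Gab1.

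Of the 5 other VEGF ligand and co-receptor genes, 4 were tested and Nrp2, given above, was called lower. Vegfc, the gene of the VEGFR3 ligand, had 379 CPM in stellate-like nuclei and 59.3 CPM in endothelial-like nuclei. Nrp2 had 321 CPM in endothelial-like nuclei. Both were at least 4-fold higher in those lineages than in every other. Vegfd had 17.5 CPM in Cox10-/- and 13.0 CPM among wild-type hepatocyte-like nuclei.

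Of the 8 hypoxia-sensing genes, which act upstream of Vegfa in many tissues, 7 were tested and 1 was called. Egln3, an oxygen-dependent prolyl hydroxylase gene that is itself induced by hypoxia-inducible factors, was called higher, at 35.4 CPM in Cox10-/- and 5.51 CPM among wild-type hepatocyte-like nuclei, a ratio of 6.42 (4.48 to 9.40). Egln2 had 56.7 CPM in Cox10-/- and 35.0 CPM in wild-type nuclei, a ratio of 1.62. Epas1, which encodes HIF-2α, had 347 CPM in Cox10-/- and 354 CPM among wild-type hepatocyte-like nuclei and was highest in endothelial-like nuclei at 461 CPM. Arnt had 176 CPM in Cox10-/- and 159 CPM in wild-type nuclei.

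Of the 4 other TIE and angiopoietin genes, 1 was tested. Ptprb encodes VE-PTP, the phosphatase that acts on TIE2, and had 3596 CPM in endothelial-like nuclei. It was called higher in hepatocyte-like nuclei, at 10.4 CPM in Cox10-/- and 1.98 CPM in wild-type ones, a direction shared with the endothelial marker sum given above. Tie1, the gene of the partner receptor of TIE2, had 63.3 CPM in endothelial-like nuclei.

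Of the 11 endothelial genes downstream of VEGF and Notch, 5 were tested in hepatocyte-like nuclei and Id1 was called higher, at 16.0 CPM (66 UMIs) in Cox10-/- and 0.989 CPM (7 UMIs) in wild-type nuclei. Id1 encodes an inhibitor of DNA binding. It had 10.5 CPM in endothelial-like nuclei, no higher than in hepatocyte-like ones. Foxo1 had 619 CPM in Cox10-/- and 472 CPM among wild-type hepatocyte-like nuclei, Shb 494 CPM and 324 CPM, and the receptor gene Notch1 7.51 CPM and 11.9 CPM. None of these 3 was called.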

How the data were processed

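The authors deposited raw counts of UMIs per gene and nucleus for both libraries, made with Cell Ranger 7.0 on mm10 per the submitters' processing notes. Per the labels, the libraries are 10x 3′ single-nucleus libraries. Nuclei with at most 10% mitochondrially encoded UMIs, at least 500 UMIs and at least 300 genes were kept. Scrublet marked 14 Cox10-/- and 0 wild-type nuclei as doublets, which were removed. These were too few to rely on, and the highest 4% of scores were also left out as an alternative. The Leiden algorithm (scanpy 1.11.5, resolution 1, 30 components, 2000 variable genes without the members and pathway genes) gave clusters. A cluster took a lineage name where log2(CPM + 1), averaged over the lineage's markers, exceeded the mean of the other clusters by at least 2. At least 3 markers had to be detected, with 1 lineage alone passing. Hepatocyte clusters needed any excess with other lineages under 1.5. These naming limits were chosen with the data in view. Among all deposited nuclei, a cluster past the myeloid limit but led by Igha, Igkc and Jchain, plasma-cell genes, stayed unnamed as an exception to this rule.

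Counts were summed by library and lineage. CPM have exact Poisson, ratios conditional binomial and shares Clopper-Pearson 95% intervals (scipy 1.17.1). UMIs of 1 library are not independent animals. The ratio rule was tested on simulated data. Scale factors from edgeR 4.0.16 and DESeq2 1.42.0 were alternatives, without their tests. Gene positions are from GENCODE on mm10. The members and lists were chosen with earlier results of these data known. All members are named, and of each pathway list the 2 genes with the highest lineage level and the 2 with the largest hepatocyte-like ratio.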

Additional observations from a re-analysis of the deposited data

Results flagged for a closer look

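Nrp1 went in opposite directions between libraries in different lineages. Its log2 ratio of Cox10-/- over wild-type was -1.60 in hepatocyte-like nuclei, 0.52 in endothelial-like nuclei and 1.12 in myeloid-like nuclei, the endothelial-like and myeloid-like values being over all deposited nuclei. With 1 sample a group the difference between lineages was not tested. Per endothelial marker UMI the endothelial-like ratio was 0.698, and without the mostly wild-type endothelial-like cluster the log2 ratio by CPM was -0.62. The latter rests on wild-type nuclei that clustered with Cox10-/- ones. Per myeloid marker UMI the myeloid-like ratio was 1.39 (0.806 to 2.58), from 390 Cox10-/- and 14 wild-type UMIs. Over all deposited nuclei, lymphoid-like nuclei had 42.9 CPM in the Cox10-/- library and 134 CPM in the wild-type library (11 and 9 UMIs). This is a ratio of 0.321 (0.121 to 0.875), lower as in hepatocyte-like nuclei. The lymphoid-like ratio was 0.683 (0.232 to 2.25) in the main set and 1.04 (0.354 to 4.17) with own-marker lineages. Both of these intervals span 1.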

How the results depend on the processing

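Of 204 alternative values, 60 that bear on a comparison moved by less than their counting error (for counts, by less than 1.5 times). Another 38 that bear on a comparison moved by more and 0 reversed. Among the values that bear on no comparison, 87 moved by less, 18 moved by more and 1 reversed. In hepatocyte-like nuclei the log2 ratios of Met, Vegfa and Nrp1 were below 0 under every alternative run. At no more than 5% mitochondrial UMIs, Vegfa was -0.30 and Nrp1 -2.09, Hgf turned to -0.31, and 323 genes were called higher and 204 lower, where the main counts were 872 and 369. With lineages from each nucleus's own marker UMIs, Met was -0.56, Vegfa -0.66 and Nrp1 -1.25, and 218 genes were lower. Met was -0.51 after thinning. Without the shallow Cox10-/- cluster of 440 nuclei 574 genes were higher, and with at least 100 UMIs a gene 538 were higher and 598, not 1268, were lineage-restricted. Outside hepatocytes, over all deposited nuclei, own-marker lineages gave log2 ratios of 2.39 for Hgf in stellate-like nuclei and, in endothelial-like nuclei, 2.39 for Hgf, 0.85 for Nrp1, 1.22 for Kdr, 1.68 for Flt1 and 1.77 for Tek. At no more than 10% mitochondrial UMIs these were 1.90, 4.197, 1.34, 1.40, 1.82 and 2.22, with 1.92 for Flt4, the 4.197 resting on 2 wild-type Hgf UMIs. Per lineage marker UMI they were 0.12, 0.82, -0.52, -0.20, 0.30 and 0.38, with 0.37 for Flt4. Without the mostly wild-type endothelial-like cluster, Hgf was 0.20, Nrp1 -0.62, Kdr 0.088, Flt1 0.38, Flt4 0.22 and Tek 0.37. The per-marker scale and the cluster left out were chosen after seeing the data. With that cluster left out, the wild-type endothelial-like nuclei kept were those that clustered with Cox10-/- nuclei. The cause of these shifts was not tested. No paired analysis was possible because each group holds 1 sample. With 25 wild-type endothelial-like and 7 stellate-like nuclei under 10% mitochondrial UMIs, differences outside hepatocytes were at the limit of depth.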
